A study of Mus musculus with 10 samples.

Results

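Signals of 8 aldehyde dehydrogenase genes and of transketolase were followed across 10 arrays of whole mouse lens. The genes were Aldh1a1, Aldh1a2, Aldh1a3, Aldh2, Aldh3a1, Aldh3a2, Aldh7a1, Aldh9a1 and Tkt, and they were chosen by name. Each probe set that carried 1 of these 9 symbols and no other was taken, which gave 20 probe sets of 45101 on the array. The array named 18193 genes through single symbols, and 13444 of them, the 9 included, were bright enough to be tested. Of the 20 probe sets, 16 were above the brightness filter, a mean signal of 54.1. Lenses at postnatal day 56 (PN56) were labelled Klf4CN, for Klf4-conditional null, on 2 arrays and wild type (WT) on 2 arrays, and each PN56 preparation pooled lenses of 3 young adults. Lenses at embryonic day 16.5 (E16.5) were labelled Klf4CN on 3 arrays and WT on 3 arrays, and each E16.5 preparation pooled lenses of 5 embryos. The labels name neither the Cre line and promoter behind the conditional deletion nor the strain, and do not spell out the alleles of the WT lenses. Dissected lenses hold both the epithelium and the fibre cells, and a pool gives no measure of the spread between animals.

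Aldehyde dehydrogenases oxidise aldehydes to carboxylic acids with NAD or NADP as the cofactor. They clear aldehydes that arise from lipid peroxidation, alcohols, amino acids and amines, and the Aldh1a enzymes make retinoic acid from retinal. Transketolase moves carbon units between sugar phosphates in the non-oxidative branch of the pentose phosphate pathway, whose oxidative branch supplies NADPH. In the cornea of mammals some of these enzymes build up to levels far beyond catalytic need and are called corneal crystallins, by analogy with the crystallins of the lens. ALDH3A1 and transketolase are the best known of them in the mouse, and ALDH1A1 has that role in other mammals. Klf4 is a zinc finger transcription factor of epithelia whose family binds CACCC boxes and GC-rich sites.

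Klf4 itself was read first, as a check of the labels. Its brighter probe set gave signals of 732 and 702 in PN56 lenses labelled Klf4CN, against 157 and 214 in PN56 WT lenses. The same probe set gave 1360.3, 805 and 1072 in E16.5 lenses labelled Klf4CN, against 775, 1015 and 428 in E16.5 WT lenses. The log2 difference was 1.88 at PN56 (SE 0.339, limma adjusted p = 0.004232) and 0.59 at E16.5 (SE 0.276, limma adjusted p = 0.9997), so that the signal went against the label at PN56. A second Klf4 probe set differed by 1.04 at PN56 (limma adjusted p = 0.07534 with every probe set by itself). The labels do not say which part of the gene was deleted, and a probe set that binds elsewhere in the transcript is no check of the deletion. The samples are therefore called lenses labelled Klf4CN throughout.

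The libraries differed in several measures, whose part in the members' results was not tested. After the deposited scaling, the median signal of an array ran from 91 to 108.6 at PN56 and from 63 to 76.9 at E16.5. Of 17 lens markers 16 were on the array, none was below the filter signal on every array of any group, and their summed signal was 824000 to 839000 in PN56 lenses labelled Klf4CN and 1090000 to 1237000 in PN56 WT lenses. It was 333200 to 362300 in E16.5 lenses labelled Klf4CN and 372900 to 436500 in E16.5 WT lenses. At PN56, 11 of the 16 fell, among them the lens crystallins Cryab (log2 difference -0.45) and Crygs (-0.45) and the beaded filament protein Bfsp1 (-0.73). A probe set for the 5 prime part of 18S ribosomal RNA read 8353 ± 3750 in PN56 lenses labelled Klf4CN and 1699 ± 1660 in PN56 WT lenses (SD, n = 2 each). It read 21780 ± 945 in E16.5 lenses labelled Klf4CN and 1869 ± 646 in E16.5 WT lenses (SD, n = 3 each). The poly-A spike dap was below 15 on all PN56 arrays and at least 3124.9 on all E16.5 arrays, and effects of age and of preparation cannot be told apart. The 18S signals did not overlap between the genotypes at either age, so effects of genotype and of preparation cannot be told apart either.

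At PN56, 3 of the 9 members were lower in lenses labelled Klf4CN, and none was higher. These were Aldh3a1, a detoxifying enzyme and corneal crystallin, Tkt, and Aldh9a1, which oxidises the aldehyde made from trimethyllysine on the way to carnitine. Over all tested genes 6.99% were called lower and 6.08% higher in this comparison. The median log2 difference of the 9 members was -0.28, beside -0.06 over all 13444 tested genes. In 7 of the 9 the PN56 groups did not overlap, with the lenses labelled Klf4CN below WT each time, and 29.1% of all tested genes separated in that direction. The exceptions were Aldh1a2 and Aldh3a2. In these pools fewer cells of a type and less RNA per cell cannot be told apart.

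At E16.5 none of the 9 members passed the test by limma, and none had an unadjusted p under 0.05. In that comparison 0.00744% of all tested genes, a single gene, were called, and 610 of 13444 had an unadjusted p under 0.05. The members' median log2 difference was -0.04. Signals of Aldh3a1 and of the brightest Tkt probe set did not overlap between the E16.5 groups, lower in lenses labelled Klf4CN both times. Of all tested genes 6.65% separated in that direction. Every E16.5 signal of Aldh3a1 was far below the filter signal. Tkt differed by -0.11 at E16.5, beside a median of -0.125 over the 135 brightest genes, Tkt among them. No member passed the test of whether its genotype difference changed between PN56 and E16.5, a test that 4.61% of all tested genes passed. Those with an unadjusted p under 0.05 there were Tkt, Aldh3a1 and Aldh9a1 (3 of 9), with adjusted p-values of 0.09083, 0.141 and 0.1881. Over all tested genes 2738 of 13444 had an unadjusted p under 0.05 in that test.

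**Figure D1:**
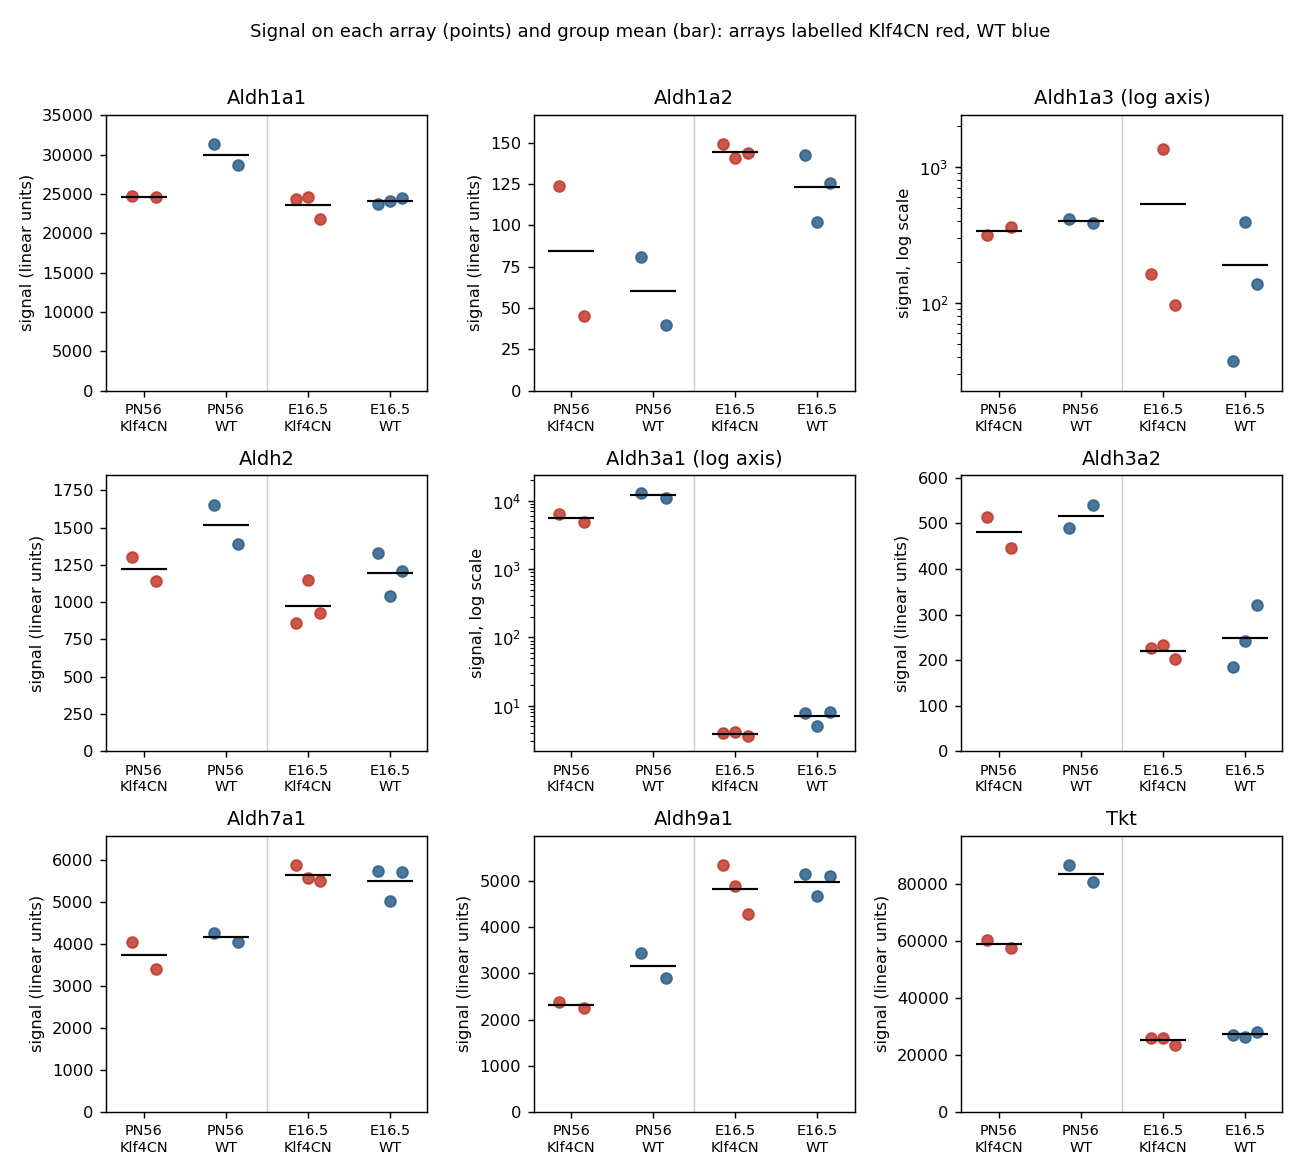
Deposited signal of the brightest probe set of each of the 9 genes, on a linear axis from 0 or, for Aldh1a3 and Aldh3a1, on a log axis. Points are arrays, bars are group means, red is labelled Klf4CN and blue WT. Tkt and Aldh3a1 are bright at PN56 and lower in lenses labelled Klf4CN there, and Aldh1a3 has 1 array at 1347 in E16.5 lenses labelled Klf4CN.

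**Figure D2:**
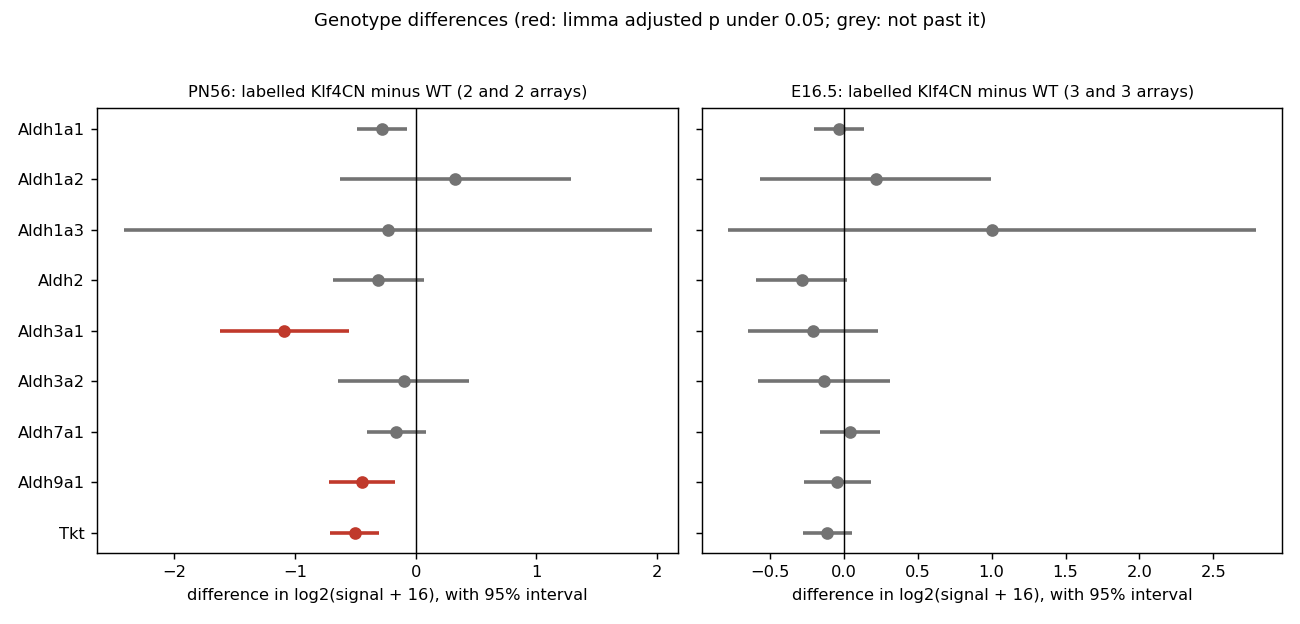
Differences in log2(signal + 16) between lenses labelled Klf4CN and WT at PN56 (2 and 2 arrays) and E16.5 (3 and 3 arrays). Points are limma estimates and lines 95% intervals. At PN56 Aldh3a1, Aldh9a1 and Tkt are marked as past the test, and at E16.5 no gene is.

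Aldh3a1 is a cytosolic enzyme known in the cornea for its absorption of ultraviolet light and its removal of lipid aldehydes. It was measured by a single probe set. Its signals were 6376 and 4964 in PN56 lenses labelled Klf4CN, against 13108 and 10951 in PN56 WT lenses. Both arrays labelled Klf4CN lay below both WT arrays, and the ratio of the group means was 0.471. The log2 difference was -1.09 (SE 0.247, limma adjusted p = 0.0135), with a 95% interval of -1.62 to -0.55. Its call ended without PN56 WT replicate 1 (log2 difference -0.96) or PN56 labelled Klf4CN replicate 2 (-0.91), each of which leaves 1 array in a group. With single arrays left out the difference ran from -1.27 to -0.91. The call also ended with an offset of 1 and with array weights.

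At E16.5 Aldh3a1 read 4.0, 4.1 and 3.6 in lenses labelled Klf4CN, against 7.8, 5.1 and 8.2 in WT lenses. All 6 values were far below the filter signal of 54.1, so that the order of the groups there is one between signals near the bottom of the scale. The log2 difference was -0.21 (95% interval -0.65 to 0.23). The gene reached the filter through its PN56 signals alone. On the log2(signal + 16) scale PN56 exceeded E16.5 by 8.15 in lenses labelled Klf4CN and by 9.03 in WT lenses, and both were called. These sizes are no measured folds, since the E16.5 signals are smaller than the offset, which sets them. With an offset of 64 or 1 the difference ran from 6.39 to 10.2 in lenses labelled Klf4CN and from 7.41 to 10.6 in WT lenses.

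Aldh3a1 is a cornea marker in many studies, so markers of the cornea were read beside it. All 17 were on the array. Their summed signal was 4877 to 4936 in PN56 lenses labelled Klf4CN and 7335 to 8045 in PN56 WT lenses, and 851 to 924 in E16.5 lenses labelled Klf4CN and 712 to 1042 in E16.5 WT lenses. Most of the PN56 sum came from Aqp5, a water channel that is also made by lens cells, which read 4149 and 3570.2 in lenses labelled Klf4CN, against 6869 and 6091 in WT lenses. Without Aqp5 the sum over the other 16 was 788 to 1307 in PN56 lenses labelled Klf4CN and 1176 to 1244 in PN56 WT lenses, so those groups overlapped. It was 766 to 881 in E16.5 lenses labelled Klf4CN and 635 to 876 in E16.5 WT lenses. Krt13, Krt16 and Psca were below the filter signal on every array. Krt12, the keratin that defines the corneal epithelium, was near the bottom of the scale. Its probe sets gave 57.0 and 32.4, and 48.4 and 73.8, in PN56 lenses labelled Klf4CN, against 76.6 and 30.8, and 20.8 and 153, in PN56 WT lenses. Of the 9 cornea markers bright enough to test, Krt6a, a stress keratin, fell at PN56 (log2 difference -2.05, limma adjusted p = 0.005328). None rose and 8 did not pass, among them Krt15, with a log2 difference of 2.17 in the opposite direction (limma adjusted p = 0.09864). The Krt6a difference is that of the brightest of 3 Krt6a probe sets, which was below the filter signal on both PN56 arrays labelled Klf4CN. A second read 131 and 47.0 in PN56 lenses labelled Klf4CN, against 105 and 169 in PN56 WT lenses, and on that one and the third the groups overlapped.

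Tkt was measured by 3 probe sets. The brightest gave 60529.8 and 57572 in PN56 lenses labelled Klf4CN, against 86590 and 80851 in PN56 WT lenses. It gave 25875, 25970.1 and 23542 in E16.5 lenses labelled Klf4CN, against 27110.2, 26375 and 28066 in E16.5 WT lenses. The groups did not overlap at either age, and all PN56 arrays were above all E16.5 arrays. At PN56 the ratio of means was 0.705 and the log2 difference -0.50 (SE 0.0933, 95% interval -0.71 to -0.30, limma adjusted p = 0.004839). At E16.5 the log2 difference was -0.11 (95% interval -0.28 to 0.05).

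The dimmer Tkt probe sets lay on the same side at PN56. At E16.5 the groups overlapped on both, with log2 differences of -0.08 and -0.17. The next brightest read 17209 and 15838 in PN56 lenses labelled Klf4CN, against 22572 and 21174 in PN56 WT lenses, a log2 difference of -0.40 (limma adjusted p = 0.05233 with every probe set by itself). The dimmest read 726 and 598 in PN56 lenses labelled Klf4CN, against 1219 and 1188.5 in PN56 WT lenses, a log2 difference of -0.85 (limma adjusted p = 0.01987 with every probe set by itself, a fit in which 5.17% of probe sets were called lower). The brightest of the 3 carries the maker's suffix for probes that can also bind related transcripts, and the other 2 do not. The call of the brightest ended with quantile normalization (-0.25, adjusted p = 0.1204) and with each array centred on its median (-0.38, adjusted p = 0.1038), and it also ended in a fit of the PN56 arrays alone (adjusted p = 0.08654).

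Tkt lies where the array is brightest, so the brightest features were read beside it. Tkt and Aldh1a1 were among the 135 brightest genes, 1% of those tested, of which 29 (21.5%) were called lower and 15 higher at PN56. Their median log2 difference was -0.10 at PN56 and -0.125 at E16.5. The cre spike, a hybridisation control whose sequence a Cre transgene would share, read 51262 to 53238 on PN56 arrays labelled Klf4CN and 72629 to 83845 on PN56 WT arrays. Its part in the Tkt and Aldh1a1 differences was not tested. The brightest 10% of tested genes, which hold Aldh1a1, Aldh7a1, Aldh9a1 and Tkt, had a median log2 difference of 0.05, with 13.2% called lower and 17.3% higher.

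**Figure D3:**
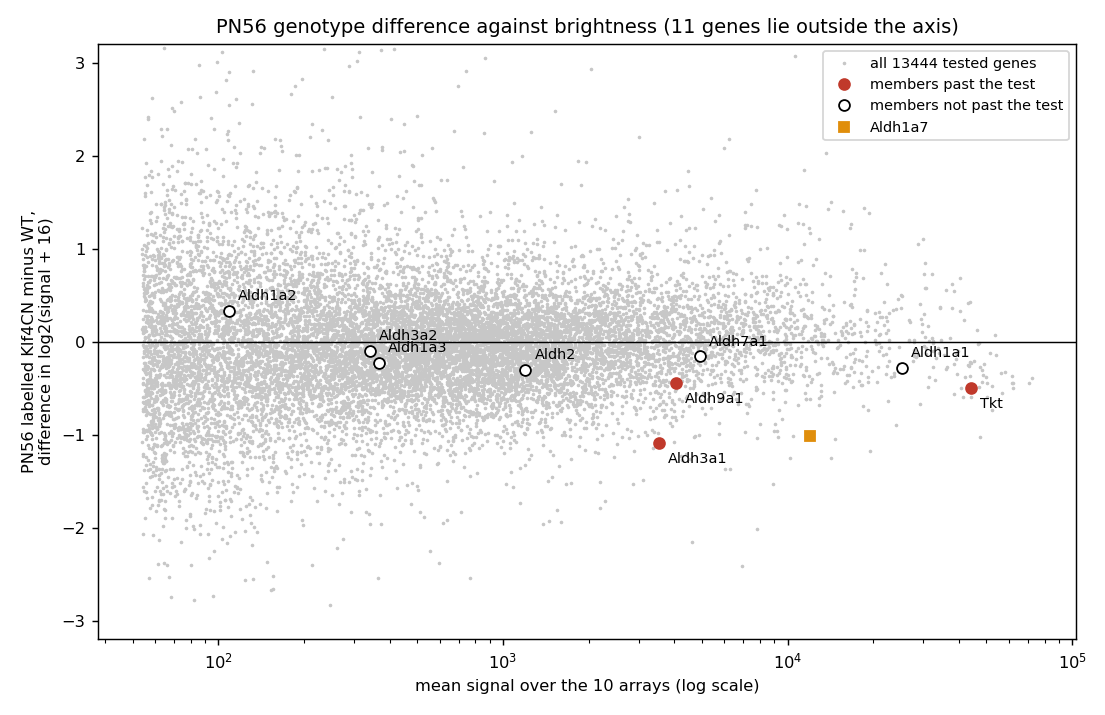
PN56 difference in log2(signal + 16), labelled Klf4CN minus WT, of each tested gene (grey) against its mean signal over the 10 arrays on a log axis. Filled red circles are Aldh3a1, Aldh9a1 and Tkt, open circles the other 6 members, and the square Aldh1a7. Tkt sits at the bright edge, where the median over 135 genes was -0.10, and Aldh3a1 and Aldh1a7 lie at -1.09 and -1.01.

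The other enzymes of the pentose phosphate pathway were read beside Tkt. Of 12 listed genes 11 were on the array and 8 were tested. At PN56 Pgd, which makes NADPH in the oxidative branch, fell by 0.57 on the log2 scale (limma adjusted p = 0.03411), none rose and 7 did not pass, with a list median of 0.08. Its brightest probe set read 930 and 787 in PN56 lenses labelled Klf4CN, against 1514 and 1075 in PN56 WT lenses. That call ended in 7 of 23 alternatives, among them leaving out PN56 WT replicate 1 (-0.32), PN56 labelled Klf4CN replicate 2 (-0.45) or E16.5 labelled Klf4CN replicate 1 (-0.57). None of the 8 passed at E16.5, where 2 had an unadjusted p under 0.05. Between ages the direction was opposite for Pgd and Tkt. Pgd was lower at PN56 by a log2 difference of -1.66 in lenses labelled Klf4CN and -1.20 in WT lenses (limma adjusted p = 1.411e-06 and 1.902e-05). Taldo1, the transaldolase that works beside transketolase, was singled out after its values were seen, and it was lower at PN56 by -0.83 in lenses labelled Klf4CN and by -0.85 in WT lenses (limma adjusted p = 0.0001256 and 9.056e-05). In WT lenses 1 of the 8 rose and 5 fell with age, where 25.8% and 30.9% of all tested genes did. In lenses labelled Klf4CN 1 rose and 3 fell, where 22.3% and 30.8% of all tested genes did.

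Aldh9a1 had 2 probe sets. The brighter gave 2376 and 2258 in PN56 lenses labelled Klf4CN, against 3445 and 2892 in PN56 WT lenses. The groups did not overlap, the ratio of means was 0.731, and the log2 difference was -0.44 (SE 0.127, 95% interval -0.72 to -0.17, limma adjusted p = 0.03829). The second probe set read 930 and 766 in PN56 lenses labelled Klf4CN, against 1094 and 953 in PN56 WT lenses, a log2 difference of -0.27 (limma adjusted p = 0.3053 with every probe set by itself). The call of the brighter one ended in 11 of 23 alternatives, with adjusted p-values from 0.01892 to 0.2833, and 6 of those 11 left out a single array. Without PN56 WT replicate 1 the difference was -0.32, without PN56 labelled Klf4CN replicate 1 or 2 it was -0.48 or -0.41, and the other 3 arrays were E16.5 arrays (WT replicates 1 and 3, labelled Klf4CN replicate 2), whose loss left it at -0.44. At E16.5 it read 5345, 4889 and 4298.5 in lenses labelled Klf4CN, against 5149.5, 4679 and 5107 in WT lenses, and those groups overlapped.

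Aldh7a1 oxidises the semialdehyde formed when lysine is broken down and also betaine aldehyde. Its brightest probe set read 4037 and 3404 in PN56 lenses labelled Klf4CN, against 4251 and 4039 in PN56 WT lenses. The nearest arrays of the groups differed by less than 2 signal units, and the log2 difference of -0.16 did not pass (95% interval -0.41 to 0.09, limma adjusted p = 0.392). At E16.5 it read 5859, 5553 and 5481 in lenses labelled Klf4CN, against 5735, 5006 and 5707 in WT lenses, which overlapped. Of its other 2 probe sets, 1 was below the filter and the other ranged from 9.0 to 172 over the 10 arrays, with a log2 difference of 1.07 at PN56 (limma adjusted p = 0.3657 with every probe set by itself), opposite in sign to the brightest.

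Aldh2 is the mitochondrial enzyme that clears acetaldehyde and lipid aldehydes. Its brightest probe set read 1305.5 and 1139.7 in PN56 lenses labelled Klf4CN, against 1652 and 1389 in PN56 WT lenses. Those groups did not overlap, and the log2 difference of -0.31 did not pass (95% interval -0.68 to 0.07, limma adjusted p = 0.2662). At E16.5 it read 860, 1146 and 926 in lenses labelled Klf4CN, against 1327.5, 1044 and 1206 in WT lenses, with a log2 difference of -0.29 (95% interval -0.59 to 0.02, limma adjusted p = 0.9997). Its second probe set behaved otherwise between ages. It read 120 and 139 in PN56 lenses labelled Klf4CN, against 1.1, 0.9 and 9.9 in E16.5 lenses labelled Klf4CN, and 254 and 246 in PN56 WT lenses, against 0.8, 1.1 and 1.1 in E16.5 WT lenses. The PN56 minus E16.5 log2 difference of this probe set was 2.89 in lenses labelled Klf4CN and 3.97 in WT lenses (limma adjusted p = 0.0003562 and 2.694e-05 with every probe set by itself, where 23.6% and 26.8% of probe sets were called higher). It too reached the filter through PN56 alone, and since its E16.5 signals are below the offset of 16, that offset sets the size of both differences. The remaining 3 Aldh2 probe sets were below the filter.

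Aldh3a2, a membrane enzyme that oxidises fatty aldehydes, is the neighbour of Aldh3a1 in the RefSeq gene table, with 0 genes between them. It read 513.5 and 447 in PN56 lenses labelled Klf4CN, against 491 and 540.5 in PN56 WT lenses. Those groups overlapped, and the log2 difference was -0.10 (95% interval -0.65 to 0.45, limma adjusted p = 0.8338). At E16.5 it read 225.5, 233 and 202 in lenses labelled Klf4CN, against 185, 241 and 321 in WT lenses, which also overlapped. The 95% interval at PN56 overlaps that of Aldh3a1, and the difference between the neighbours was not tested.

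Aldh1a1 is the retinal dehydrogenase of the cytosol, which also oxidises lipid aldehydes. It read 24717 and 24608 in PN56 lenses labelled Klf4CN, against 31323 and 28698 in PN56 WT lenses. Groups did not overlap at PN56, the ratio of means was 0.822, and the log2 difference of -0.28 did not pass (95% interval -0.49 to -0.08, limma adjusted p = 0.0708). At E16.5 it read 24392, 24658 and 21837 in lenses labelled Klf4CN, against 23691, 24156 and 24551 in WT lenses, which overlapped. Under cyclic loess normalization, an alternative chosen after seeing the data, the PN56 difference passed (-0.37, adjusted p = 0.02783).

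Aldh1a7, a mouse gene close in sequence to Aldh1a1, lies beside it in the RefSeq gene table with 3 genes between them, of which 0 code for protein. Because near-identical transcripts can bind the same probes, signals of this pair are uncertain as measures of one gene. Aldh1a7 read 2666 and 2447 in PN56 lenses labelled Klf4CN, against 5425 and 4918 in PN56 WT lenses, and it read 17699.6, 18792 and 15523 in E16.5 lenses labelled Klf4CN, against 18878, 16439.9 and 17343 in E16.5 WT lenses. The groups overlapped at E16.5 and lay apart at PN56. The PN56 ratio of means was 0.494 and the log2 difference -1.01 (SE 0.115, limma adjusted p = 0.0002934). It passed under all 23 alternatives run, with log2 differences from -1.08 to -0.88. Its genotype difference changed between PN56 and E16.5 (log2 -0.99, limma adjusted p = 0.004655), a call that was not run under the alternatives. With age it fell, by log2 differences of -2.75 in lenses labelled Klf4CN and -1.76 in WT lenses (limma adjusted p = 2.566e-09 and 5.569e-08).

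Aldh1a2 and Aldh1a3 make retinoic acid in the embryo, Aldh1a2 mainly in mesenchyme and Aldh1a3 in parts of the eye and face. Aldh1a2 was dim, at 124 and 45.1 in PN56 lenses labelled Klf4CN, against 80.6 and 40 in PN56 WT lenses. It read 149, 141 and 144 in E16.5 lenses labelled Klf4CN, against 142, 102 and 125 in E16.5 WT lenses. Genotypes overlapped at both ages, and the log2 difference at PN56 was 0.33 (95% interval -0.63 to 1.28, limma adjusted p = 0.6729).

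Aldh1a3 varied most between replicates. Its brightest probe set read 316 and 363 in PN56 lenses labelled Klf4CN, against 415 and 387 in PN56 WT lenses. At E16.5 it read 162, 1347 and 95.8 in lenses labelled Klf4CN, against 37.6, 394.5 and 137 in WT lenses, so the groups overlapped over a wide range. The other 2 probe sets were also highest on the second E16.5 array labelled Klf4CN at E16.5, at 136 and 261.5. At PN56 the probe set with 261.5 read 114 and 115 in lenses labelled Klf4CN, against 91.5 and 144 in WT lenses, and the other 207 and 114 in lenses labelled Klf4CN, against 113.5 and 106 in WT lenses, so that its order was opposite to that of the brightest. The log2 difference at E16.5 was 1.0 (95% interval -0.78 to 2.79, limma adjusted p = 0.9997), and without that array it was -0.09. At PN56 the log2 difference was -0.23 (95% interval -2.42 to 1.96, limma adjusted p = 0.907).

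The same E16.5 array labelled Klf4CN was high in markers of other eye tissues. All 10 pigment cell markers were on the array, and their summed signal was 9361 there, beside 6835 and 3528 on the other arrays of that group, and 2602 to 3676 in E16.5 WT lenses. Of 22 retina markers 19 were on the array, and their sum was 21430 on that array, beside 8776 and 12300 on the others of the group, and 3385 to 12520 in E16.5 WT lenses. The WT array with the retina sum of 12520 was also the one with the Aldh1a3 signal of 394.5, and its pigment sum was 2676. The E16.5 WT array with the pigment sum of 3676 had an Aldh1a3 signal of 137. The E16.5 array labelled Klf4CN with the retina sum of 12300 had one of 95.8, the lowest of its group. At PN56 the pigment sum was 5720 to 5809 in lenses labelled Klf4CN and 9345 to 11280 in WT lenses, and the retina sum 16870 to 23090 in lenses labelled Klf4CN and 16380 to 17250 in WT lenses. Gpr143 and Rpe65 of the pigment list, and Gnat1, Nefh and Pde6b of the retina list, were below the filter signal on every E16.5 array. Between genotypes at E16.5, 5 of 7 tested pigment markers and 6 of 18 tested retina markers had an unadjusted p under 0.05 by limma. Their median log2 differences were 1.85 and 1.21, and none passed after adjustment. Over all tested genes 610 of 13444 had an unadjusted p under 0.05 there. The brightest tested genes were Mitf and Dct in the pigment list and Glul and Sox2 in the retina list. Their E16.5 log2 differences were -0.01, 2.09, 0.515 and 0.006, and none passed by limma. The sums were not taken without these genes. The part of pigment cells and retina in the Aldh1a3 signal was not tested.

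**Figure D4:**
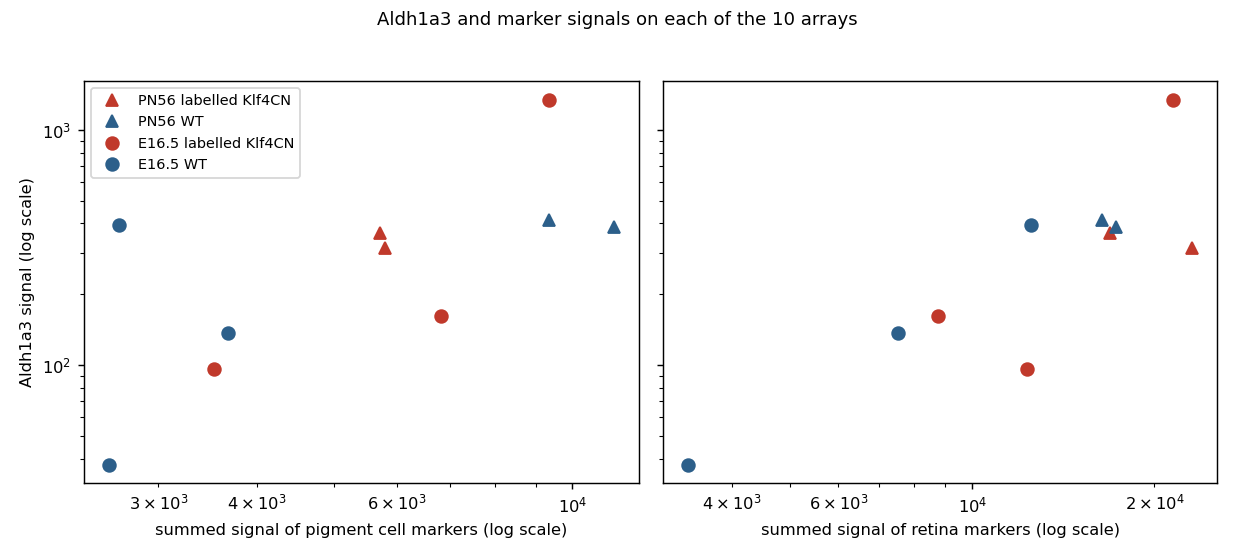
Aldh1a3 signal on each of the 10 arrays against the summed signal of pigment cell markers (left) and retina markers (right), all on log axes. Triangles are PN56, circles E16.5, red labelled Klf4CN and blue WT. The highest Aldh1a3 signal, 1347, belongs to the E16.5 array labelled Klf4CN whose sums were 9361 and 21430.

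Genes around the Aldh1a enzymes were read as a list of retinoid metabolism and response. Of 26 listed genes 23 were on the array and 20 were tested, and at PN56 3 rose, 2 fell and 15 did not pass, with a median log2 difference of 0.11. Bco1, which cleaves beta-carotene to retinal, read 123 and 152 in PN56 lenses labelled Klf4CN, against 24.7 and 29.0 in PN56 WT lenses (log2 difference 1.83, limma adjusted p = 0.001958). Its PN56 WT signals were below the filter signal, so the size of that difference is uncertain. Over the alternatives the Bco1 difference ran from 1.14 to 2.31. Cyp26a1, which degrades retinoic acid and is induced by it, read 1719.5 and 1648 in PN56 lenses labelled Klf4CN, against 800.5 and 892 in PN56 WT lenses (0.98, limma adjusted p = 0.03567). Rdh14, a retinol dehydrogenase, also rose, by a smaller log2 difference (0.43, limma adjusted p = 0.02724). Adh5, an alcohol dehydrogenase that clears formaldehyde with glutathione, fell (-0.35, limma adjusted p = 0.02524). The calls of Cyp26a1 and Rdh14 each ended in 7 of 23 alternatives, that of Adh5 in 8 and that of Bco1 in 1. Leaving out any 1 of the 4 PN56 arrays ended the Cyp26a1 call, with differences from 0.90 to 1.06. The Rdh14 and Adh5 calls ended without either PN56 WT array or PN56 labelled Klf4CN replicate 2, with differences from 0.36 to 0.49 and from -0.40 to -0.30 over all single arrays left out. Stra6, the cell surface receptor for retinol-binding protein, is outside the rule for naming and was chosen after its values were seen. It read 56.7 and 7.2 in PN56 lenses labelled Klf4CN, against 72.8 and 141 in PN56 WT lenses (-1.52, limma adjusted p = 0.03745), a call that ended in 16 of 23 alternatives. With single arrays left out the Stra6 difference ran from -2.35 to -0.70, and its array at 7.2 was below the filter signal. None of the 20 passed at E16.5, where 1 had an unadjusted p under 0.05.

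Among the other aldehyde dehydrogenases, 12 were listed and on the array and 11 were tested. At PN56 1 rose, 2 fell and 8 did not pass, and the median log2 difference was -0.16. Beside Aldh1a7, the mitochondrial Aldh1b1 fell, with 67.8 and 93.1 in PN56 lenses labelled Klf4CN, against 218 and 198 in PN56 WT lenses (log2 difference -1.23, limma adjusted p = 0.01788). Aldh1l2, the mitochondrial enzyme of the folate pathway, rose, with 320.0 and 312 in PN56 lenses labelled Klf4CN, against 132 and 101 in PN56 WT lenses (1.33, limma adjusted p = 0.01409). Both calls ended with array weights and in the fit of the PN56 arrays alone. The Aldh1b1 call also ended without PN56 WT replicate 1 (-1.16) or PN56 labelled Klf4CN replicate 1 (-1.04), and the Aldh1l2 call without PN56 WT replicate 2 (1.16) or PN56 labelled Klf4CN replicate 2 (1.35). The genotype difference of Aldh1b1 changed between PN56 and E16.5 (log2 -1.47, limma adjusted p = 0.04914), a call close to the threshold that was not run under the alternatives. None of the 11 passed at E16.5 by limma, and 0 had an unadjusted p under 0.05.

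Enzymes that remove aldehydes by reduction or by conjugation with glutathione numbered 20 listed, 17 on the array and 15 tested. At PN56 Akr1a1, an aldehyde reductase, fell, none rose and 14 did not pass, and the median log2 difference was 0.14. Akr1a1 read 40069 and 41658 in PN56 lenses labelled Klf4CN, against 63633 and 57066 in PN56 WT lenses (log2 difference -0.56, limma adjusted p = 0.003016). On 2 of its other 3 probe sets the PN56 groups also lay apart (ratios of means 0.747 and 0.821), and on the remaining one they overlapped (0.903). It is among the brightest genes, as Tkt is, and its call ended with each array centred on its median and in the fit of the PN56 arrays alone. Enzymes that serve as lens crystallins in other animals numbered 12 listed and 8 tested, and by limma 0 of the 8 passed at PN56, where 2 had an unadjusted p under 0.05. Neither list had a called gene by limma at E16.5, and each held 1 gene with an unadjusted p under 0.05 there.

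More members passed the test between ages than between genotypes. In lenses labelled Klf4CN 3 of the 9 were higher at PN56 than at E16.5 and 2 were lower, where 22.3% and 30.8% of all tested genes were called in those directions. In WT lenses 4 were higher and 2 lower, where 25.8% and 30.9% of all tested genes were. Aldh3a1 was among those higher in both genotypes, and it reached the filter through its PN56 signals alone. The members' median log2 difference was 0.24 in lenses labelled Klf4CN and 0.35 in WT lenses, beside -0.10 and -0.04 over all tested genes. With each array centred on its median these medians over all genes moved to -0.44 and -0.55, so age differences of about that size depend on the scaling. Groups lay apart with no overlap in 3 members higher and 3 lower in lenses labelled Klf4CN, where 31.3% and 39.2% of all tested genes did, and in 5 higher and 3 lower in WT lenses, where 34% and 37.1% did.

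Tkt and Aldh3a2 rose beside Aldh3a1, and Aldh7a1 and Aldh9a1 fell. The PN56 minus E16.5 log2 difference of Tkt was 1.23 in lenses labelled Klf4CN (SE 0.0852, limma adjusted p = 2.191e-07) and 1.62 in WT lenses (SE 0.0852, limma adjusted p = 1.837e-08). Over the alternatives it ran from 0.38 to 1.27 and from 0.64 to 1.67. Those values are of the brightest Tkt probe set, and the rise was smaller on the others. The next brightest differed by 0.57 in lenses labelled Klf4CN and 0.90 in WT lenses, and the dimmest by 0.80 and 1.49. Of the 135 brightest genes, Tkt among them, 108 were called higher and 6 lower in lenses labelled Klf4CN (median log2 difference 0.86). In WT lenses 97 were higher and 16 lower (median 0.78). The cre spike averaged 52250 at PN56 and 33180 at E16.5 on arrays labelled Klf4CN, and 78240 and 38340 on WT arrays. The part of brightness in the Tkt rise was not tested. Aldh3a2 rose by 1.07 in lenses labelled Klf4CN and 1.03 in WT lenses (limma adjusted p = 0.001805 and 0.002137), a call that ended in WT with each array centred on its median. Aldh9a1 differed by -1.05 in lenses labelled Klf4CN and -0.65 in WT lenses (limma adjusted p = 1.015e-05 and 0.0004331), and its second probe set by -0.94 and -0.64 (adjusted p = 0.0001647 and 0.002504 with every probe set by itself, where 25.9% and 26.1% of probe sets were called lower). Aldh7a1 differed by -0.60 in lenses labelled Klf4CN and -0.40 in WT lenses (limma adjusted p = 0.000382 and 0.005724), calls that ended when its probe sets were averaged.

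Aldh1a1 was called higher at PN56 in WT lenses (log2 difference 0.31, limma adjusted p = 0.008225), but the sign turned with quantile normalization (-0.14) and with each array centred on its median (-0.20). In lenses labelled Klf4CN its difference was 0.06 (limma adjusted p = 0.5562), and it turned to -0.56 under quantile normalization (adjusted p = 0.0005902). Its direction with age is therefore not settled by these arrays. Aldh2, Aldh1a2 and Aldh1a3 did not pass between ages in either genotype, with adjusted p-values from 0.07066 to 0.842. Aldh2 passed in 4 of 23 alternatives in lenses labelled Klf4CN and in 3 in WT lenses, among them the mean of its probe sets (1.24 and 1.52), and it turned negative with median centring. Aldh1a2 passed in 2 of 22 in lenses labelled Klf4CN and in 6 in WT lenses, with differences from -1.39 to -0.20 and from -1.43 to -0.52 over all 22. In order of level over the 4 groups, Aldh3a1 and the brightest Tkt probe set ran from PN56 WT through PN56 labelled Klf4CN and E16.5 WT to E16.5 labelled Klf4CN with no overlap between neighbours. On the dimmer Tkt probe sets the order was the same, but the E16.5 groups overlapped. In Aldh9a1 the order was E16.5 WT, E16.5 labelled Klf4CN, PN56 WT and PN56 labelled Klf4CN, and the E16.5 groups overlapped.

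**Figure D5:**
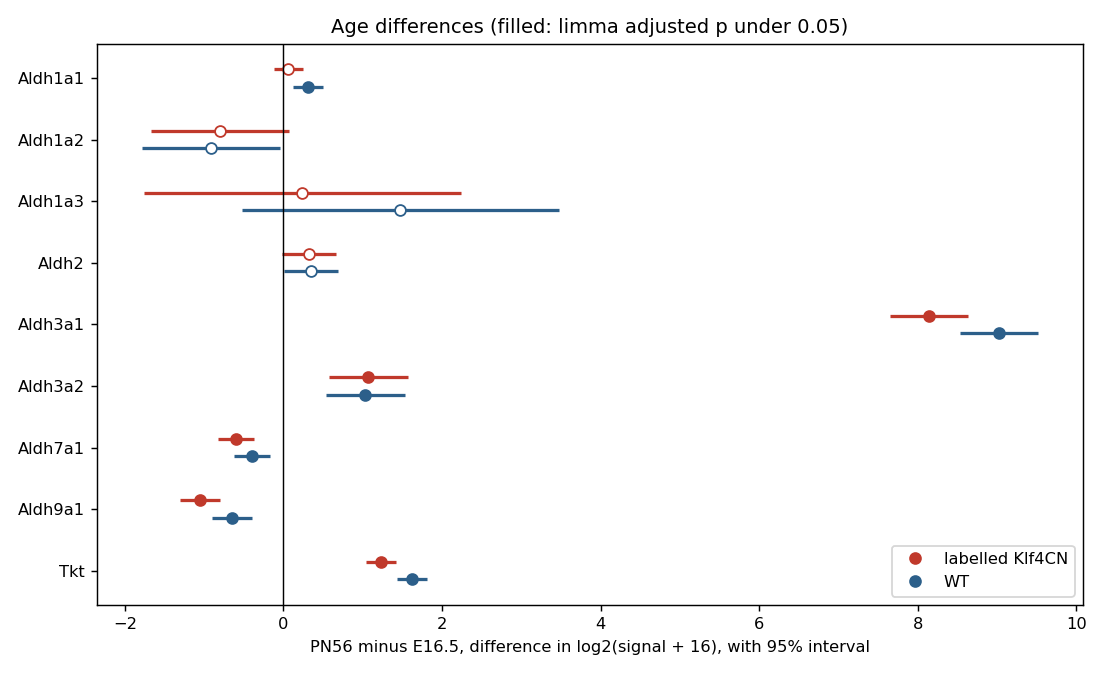
PN56 minus E16.5 differences in log2(signal + 16) for the 9 genes, with limma estimates as points and 95% intervals as lines, in lenses labelled Klf4CN (red) and WT (blue). Filled points passed the test. Aldh3a1 differs by 8.15 and 9.03, Tkt and Aldh3a2 by 1.03 to 1.62, and Aldh7a1 and Aldh9a1 by -1.05 to -0.40.

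Of the other lists, 4 of 11 other aldehyde dehydrogenases rose and 4 fell with age in lenses labelled Klf4CN, and 2 rose and 3 fell in WT lenses. In the retinoid list 7 of 20 rose and 4 fell in lenses labelled Klf4CN, and 8 rose and 5 fell in WT lenses. Of the reducing and conjugating enzymes, 7 of 15 were higher at PN56 and 1 lower in lenses labelled Klf4CN, and 8 were higher and 1 lower in WT lenses, counts that were not taken under another scaling. The shares over all tested genes are those given above for the members. Akr1a1 differed by 0.47 in lenses labelled Klf4CN and 0.95 in WT lenses (limma adjusted p = 0.0006202 and 2.028e-06) on its brightest probe set. Another of its 4 probe sets was lower at PN56 with no overlap, with ratios of means of 0.723 in lenses labelled Klf4CN and 0.766 in WT lenses, so its direction with age differs between probe sets. Of the enzymes that serve as crystallins in other animals, 3 of 8 rose and 1 fell in lenses labelled Klf4CN, and 2 rose and 1 fell in WT lenses.

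Promoter windows are shown for Tkt and Aldh9a1, which were lower together at PN56 in lenses labelled Klf4CN, and for Aldh3a2 and Aldh1a1, which did not pass there. Each window runs from 250 bases before to 50 bases after a gene start of RefSeq on GRCm38.p6 and is read 5 prime to 3 prime along the gene. RefSeq windows were matched by symbol for 5 of the 9 genes. Capitals mark CACCC, whose match on the other strand reads GGGTG, and also GGGCGG, whose match on the other strand reads CCGCCC. Overlapping matches were counted.
Tkt promoter (chr14:30548881-30549180, plus strand): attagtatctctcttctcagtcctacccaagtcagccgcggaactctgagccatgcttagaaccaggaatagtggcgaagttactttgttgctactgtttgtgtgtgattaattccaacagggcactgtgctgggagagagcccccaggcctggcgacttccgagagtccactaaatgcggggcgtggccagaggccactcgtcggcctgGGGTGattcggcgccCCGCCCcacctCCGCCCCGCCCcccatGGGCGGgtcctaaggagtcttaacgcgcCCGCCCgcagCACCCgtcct
Aldh9a1 promoter (chr1:167349741-167350040, plus strand): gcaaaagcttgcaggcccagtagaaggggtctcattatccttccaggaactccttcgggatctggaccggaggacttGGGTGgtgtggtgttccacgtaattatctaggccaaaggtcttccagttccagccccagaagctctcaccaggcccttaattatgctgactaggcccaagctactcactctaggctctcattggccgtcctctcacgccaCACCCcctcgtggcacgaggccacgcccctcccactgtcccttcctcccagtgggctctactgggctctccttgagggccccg
Aldh3a2 promoter (chr11:61267137-61267436, minus strand): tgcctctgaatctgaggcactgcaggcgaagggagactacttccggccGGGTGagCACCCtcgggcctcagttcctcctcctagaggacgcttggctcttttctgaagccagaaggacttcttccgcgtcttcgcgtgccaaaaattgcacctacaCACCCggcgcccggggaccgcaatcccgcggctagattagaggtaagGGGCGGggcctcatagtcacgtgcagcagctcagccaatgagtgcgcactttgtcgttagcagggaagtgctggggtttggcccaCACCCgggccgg
Aldh1a1 promoter (chr19:20601718-20602017, plus strand): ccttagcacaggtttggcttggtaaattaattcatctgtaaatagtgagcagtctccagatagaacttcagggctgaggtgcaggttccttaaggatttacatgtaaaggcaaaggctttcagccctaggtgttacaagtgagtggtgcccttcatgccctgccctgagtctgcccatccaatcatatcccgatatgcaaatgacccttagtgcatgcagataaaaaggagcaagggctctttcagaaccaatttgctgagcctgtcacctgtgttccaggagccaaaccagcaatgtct
Tkt held 2 CACCC matches and 5 GGGCGG matches, and Aldh9a1 2 CACCC matches and 0 GGGCGG matches. Aldh3a2, whose genotype difference at PN56 was -0.10, held 4 CACCC matches and 1 GGGCGG match. Aldh1a1 held 0 of both in this window and in its other one. Over all 32544 windows of that length 57.7% held CACCC on either strand, 35.9% held GGGCGG and 23.9% held both, so a match sets these genes apart little from other genes. A match is only a run of letters, and binding was not measured. The fifth gene with a window, Aldh1a2, held 2 CACCC matches and 0 GGGCGG matches. Windows of Aldh1a3, Aldh2, Aldh3a1 and Aldh7a1 were not analysed here.

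Genes whose log2 signals ran most like each member over the 10 arrays were listed by Pearson's r, as a description. The arrays form 2 age clusters, so a high r mostly records a like difference between PN56 and E16.5. For Aldh3a1 these were Bfsp2, a beaded filament protein of lens fibres (0.9985), Mlc1 (0.9981) and Aldoc, a glycolytic aldolase (0.9978). For Tkt they were Fuca1, a lysosomal fucosidase (0.9983), Cct5, a chaperonin subunit (0.9972), and Gpr146 (0.9972). For Aldh9a1 they were Ehmt1 (0.9913), Aph1a (0.9907) and Chsy1 (0.9905), and for Aldh7a1 Cand2 (0.9864), Mterf2 (0.9857) and Wdr4 (0.9838). Asah1 led for Aldh3a2 (0.987), with Cartpt (0.9795) and Rp9 (0.9753), and Necab2 for Aldh1a3 (0.9684), with Ltbp1 (0.9677) and Shisa2 (0.9559). The members of lower likeness were Aldh1a1, with Lonrf1 (0.9597), Dock3 (0.9467) and Rwdd4a (0.9461), Aldh1a2, with Ptpn9 (0.9597), C2cd2l (0.9528) and Fkbp5 (0.951), and Aldh2, with Mc5r (0.9366), Uck1 (0.9297) and C030006K11Rik (0.9259). Between members, r was 0.988 for Aldh3a1 and Tkt, 0.961 for Aldh7a1 and Aldh9a1, and -0.907 for Aldh3a1 and Aldh7a1, over the same 10 arrays.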

How the data were processed

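Whole lens RNA was measured on Affymetrix mouse 430 2 arrays, 1 per preparation, after amplification with a 3' IVT Express kit, per the labels. Each deposited file gave intensities on a linear scale, as 1 signal for a probe set, and the submitters' processing notes name GCOS 1.4; no header or label describes further steps. On every array the mean after trimming 2% at each end was 499.8, so arrays had been scaled to a common level. Detection calls were not used here, and the number of arrays limits the precision.

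Signals were tested as log2(signal + 16), which understates changes of dim genes. The probe set of highest mean over 10 arrays stood for a gene, and genes were tested if that mean reached the 40th percentile over the 45101 probe sets of the array. Of these, 64 were controls, 34945 carried 1 symbol, 932 several and 9160 none. All 10 arrays entered 1 fit of 4 group means in limma 3.58.1 (R 4.3.3), with eBayes and an intensity trend, two-sided, and Benjamini-Hochberg adjustment over all tested genes; calls are at an adjusted p under 0.05. The fit was tested on simulated data. Preparations are independent pools, per the labels.

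The members and lists were chosen with earlier results of these data known. Genes named are Klf4 and the members with all probe sets. From each other pathway list and genotype comparison, up to 4 called genes of smallest p are named. Also named are the 3 genes most like each member and some, not all, of the brightest and lowest-p genes of marker lists. Alternatives were other normalizations, offsets, filters, probe set rules and fits, and leaving out each array.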

Additional observations from a re-analysis of the deposited data

How the results depend on the processing

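Alternatives numbered 23, of which 10 left out an array; where 1 array of a PN56 group remained, it was assumed to vary like the other groups. Cyclic loess was chosen after seeing the data. Of the 14 member calls, 7 held in every alternative run: those of Aldh3a1, Aldh9a1 and Tkt with age in both genotypes and of Aldh3a2 in lenses labelled Klf4CN. Aldh3a1 reached the filter through its PN56 signals alone, so its age calls lend no independent support. At PN56 the count of members called between genotypes was 1 with each array centred on its median, with array weights and in the fit of the PN56 arrays alone, against 3, and ran from 1 to 3 with single arrays left out (1 without PN56 WT replicate 1 or PN56 labelled Klf4CN replicate 2). Centring moved the PN56 median of all genes from -0.06 to 0.07 and the calls from 817 higher of 1757 to 919 higher of 1277. Over all genes 634 passed at PN56 with array weights and 1038 with the probe set mean, against 1757; for the difference between ages 200 passed without the intensity trend, 291 with the probe set mean and 320 with array weights, against 620. The member count for that difference was 1 with an offset of 64 (Aldh3a1) and 1 with cyclic loess (Tkt), against 0. The replicate number as a replicate block gave 3 members called at PN56, 0 at E16.5, 0 for the difference, 5 with age in lenses labelled Klf4CN and 6 in WT, and turned no call of a member. Same-numbered arrays had correlations of deviations of 0.0409 at PN56, a single value since 2 arrays mirror each other, and 0.271, 0.24 and 0.0524 at E16.5. Not every pair was above 0.1, so the numbers were not taken to pair the arrays.

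Signs turned in 19 of 45 member results, 1 of them called; the cause was not tested. With quantile normalization, Aldh1a1 was 0.10 and Tkt 0.00804 at E16.5, Aldh2 0.0205 for the difference, and Aldh1a1 with age -0.56 in lenses labelled Klf4CN and -0.14 in WT. With median centring, Aldh3a2 was 0.0272 at PN56, Aldh7a1 -0.0034 at E16.5, Aldh2 0.15 for the difference, and with age Aldh1a1 was -0.28 in lenses labelled Klf4CN and -0.20 in WT, Aldh2 -0.0183 and -0.17, and Aldh1a3 -0.11 in lenses labelled Klf4CN. With the probe set mean, Aldh1a3 was 0.0658 and Aldh7a1 0.11 at PN56, and Aldh2 0.0775 at E16.5. With the replicate block, Aldh1a3 was -0.11 with age in lenses labelled Klf4CN. With cyclic loess, Aldh1a1 was 0.0478 at E16.5 and -0.38 with age in lenses labelled Klf4CN, and Aldh2 0.0219 for the difference.

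With single arrays left out, values at PN56 ran from -0.27 to 0.92 for Aldh1a2. At E16.5 they ran from -0.0642 to 0.0234 for Aldh1a1, from -0.0872 to 1.73 for Aldh1a3, from -0.32 to 0.0527 for Aldh3a2, from -0.0235 to 0.0744 for Aldh7a1 and from -0.12 to 0.0393 for Aldh9a1. For the difference they ran from -0.48 to 0.71 for Aldh1a2, from -0.15 to 0.10 for Aldh2 and from -0.15 to 0.22 for Aldh3a2, and with age in lenses labelled Klf4CN from -0.47 to 1.33 for Aldh1a3.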

Other observations

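Markers of mesenchyme and of macrophages and endothelium, which a dissected lens could carry along, were read on the same arrays. Of 14 macrophage and endothelium markers 2 rose and 1 fell at PN56, and the macrophage genes Tyrobp and Cd68 were the 2 that rose (limma adjusted p = 0.000656 and 0.002273). Both were below the filter signal on every PN56 WT array, so no size is given. The summed signal of the 14 was 1947 to 2943 in PN56 lenses labelled Klf4CN and 1961 to 2034 in PN56 WT lenses, and 8088 to 10880 in E16.5 lenses labelled Klf4CN and 6658 to 9454 in E16.5 WT lenses. Of 12 mesenchyme markers 11 were on the array and 10 tested, and at PN56 Foxc2 and Col3a1 rose, both below the filter signal on every PN56 WT array, and Pdgfra fell (log2 difference -0.77; limma adjusted p = 0.001469, 0.04004 and 0.04324). Their sum was 2866 to 3376 in PN56 lenses labelled Klf4CN and 3314 to 3829 in PN56 WT lenses, and 5014 to 5807 in E16.5 lenses labelled Klf4CN and 5315 to 5710 in E16.5 WT lenses. Their part in the members' results was not tested.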
